A study of Homo sapiens with 6 samples.

Results

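The genes examined were 9 writers, readers and erasers of DNA methylation, and the question was where SMARCA4, the ATPase of the SWI/SNF chromatin remodelling complex, was bound along them in K562 cells. The members were UHRF1, UHRF2 and DNMT1, DNMT3A and DNMT3B, TET1, TET2 and TET3, and MBD1, out of 20162 protein-coding genes of the annotation. Each region was the gene span on hg19 plus 10 kb on each side, and 31 of the 28265 SMARCA4 peaks of the series lay in these regions.

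K562 is a cell line long established from a patient with chronic myelogenous leukaemia. The labels name no further treatment or genetic change. Proteins were fixed to DNA by disuccinimidyl glutarate (2 mM, 30 min) followed by formaldehyde (1%, 10 min), and sonication gave fragments of 150 to 400 bp. ChIP-seq, which sequences DNA fragments recovered with an antibody against a protein, gave 3 SMARCA4 libraries, and 3 input libraries were made without antibody. The title and the antibody label of all 3 ChIP libraries name SMARCA4, which was followed here, while their description label reads G4 ChIP-seq. The labels speak of technical replicates with 1 input. Elsewhere the study calls the replicates biological. The list keeps a region where 2 or more of the 3 replicates had it and gives only their positions, so the depth is unknown from the list, no peak has a height, and no spread between replicates can be given. A peak here means a listed region and not a level of binding or of transcription.

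DNA methylation in mammals is placed mostly on the cytosine of CpG dinucleotides. De novo methyltransferases set the mark, a maintenance methyltransferase copies it to the new strand after replication with the help of a protein that recognises hemimethylated DNA, and TET dioxygenases oxidise it so that it can be lost or replaced. Proteins with a methyl-CpG-binding domain read the mark and recruit repressors, and mutations of DNMT3A and TET2 are well known in myeloid leukaemias. A G-quadruplex (G4) is a DNA structure that guanine-rich sequence can fold into.

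Every member had a SMARCA4 peak. All 9 had at least 1 peak in their region, against 63.0% of coding genes. All 9 also had a promoter peak, meaning a peak overlapping by at least 1 bp the 1 kb on either side of the start of a protein-coding transcript of the gene, against 46.7% of coding genes. With the canonical transcript alone the count was again 9, against 44.2%. The start base itself lay inside a peak in 8 members, all but DNMT3A, against 34.3% of coding genes. A start was called CpG-rich where the central 400 bp had over 50% GC and an observed over expected CpG ratio above 0.6. By this rule 8 members had a CpG-rich start, and all 8 had a peak there, against 60.3% of the 13544 coding genes with such a start. The exception was TET1, with a ratio of 0.564 at 62.5% GC. The members were chosen with earlier results of these data known, and none of these shares allows for that choice.

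The number of peaks differed widely between the members. TET3 had 11 and TET1 had 5, UHRF1, DNMT3A and DNMT3B had 3 each, DNMT1 and MBD1 had 2 each, and UHRF2 and TET2 had 1 each. The median was 3 per member and 1 per coding gene of any length. Each count was also placed among coding genes whose region length was within 25% of the member's. Of these genes, 29.3% had as many peaks as UHRF1 or more, and 29.2% as many as DNMT3B or more. The shares were 34.9% for DNMT3A, 42.3% for MBD1, 48.7% for DNMT1 and 69.8% for UHRF2, and those of the TET genes are given below. By position, 13 peaks were at a promoter of the member, 13 were intronic, 4 lay in the upstream flank, 1 lay in the downstream flank and 0 were in an exon outside a promoter. An intronic peak was present in 5 members, against 21.5% of coding genes of any length, and TET3 held 7 of the 13. With the region widened to 50 kb on each side the total rose to 61 peaks, and DNMT1 gained the most and then had 13.

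**Figure D1:**
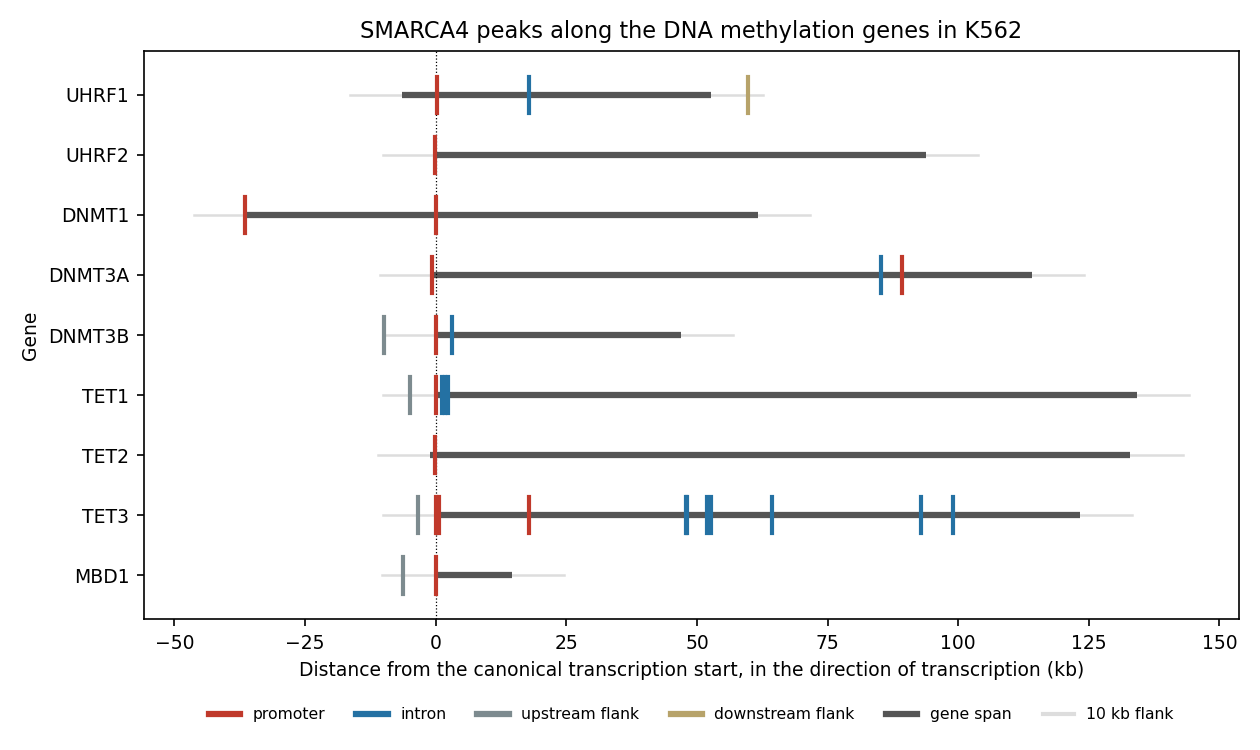
SMARCA4 peak centres (vertical bars, coloured by class) along the 9 genes, plotted by distance in kb from the canonical transcription start in the direction of transcription, with the gene span in dark grey and the 10 kb flanks in light grey. Each gene has a promoter peak near 0, and TET3 has 7 intronic peaks spread over its span.

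Among the maintenance genes, UHRF1 encodes the protein that recognises hemimethylated CpG and recruits DNMT1. Its promoter peak, at chr19:4909452-4909953, was 502 bp wide, covered the canonical start and had 74.1% GC. It held 2 G4 motifs, a G4 motif being 4 guanine runs, each 3 or more long and parted by 1 to 7 bases, on any strand and wholly inside the peak. Matches were taken without overlap from the lower coordinate upwards, so guanine runs beside a motif can be left over. The central 200 bp also held the E2F word TTTCCCGC, the other E2F words sought being TTTGGCGC, TTTCGCGC and TTTGCCGC. E2F proteins are regulators of genes used in S phase, and a match to the letters is a description and not a bound site. The sequences below are shown because they are the G4 motifs and the E2F word at the start of UHRF1, all on the plus strand of hg19, which is the coding strand, with guanine runs or the E2F word in capitals. They lie at chr19:4909674-4909691, chr19:4909701-4909723 and, for the word without its flanking bases, chr19:4909737-4909744.
UHRF1 G4 motif a: GGGcGGGccGGGtcGGGG
UHRF1 G4 motif b: GGGccGGGcgcacGGGGctcGGG
UHRF1 E2F word: tttgcaaaacTTTCCCGCgcggccagcc

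UHRF1 also had a 299-bp peak in intron 2 of the canonical transcript, at chr19:4927280-4927578, 17916 bp downstream of the start. This peak had 47.8% GC and no G4 motif, and it held the GATA word TGATAA and the AP-1 word TGACTCA, which reads TGAGTCA on the other strand. The remaining UHRF1 peak, 297 bp in the downstream flank, lay within 1 kb of a start of the neighbouring gene KDM4B, a histone demethylase. UHRF2, the paralogue of UHRF1, had a single peak of 631 bp at its start, chr9:6412816-6413446, with 65.5% GC and 1 G4 motif on the template strand. The next peak outside the UHRF2 region was 173951 bp away from the gene span.

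DNMT1, the maintenance methyltransferase, had a peak of 375 bp over its canonical start, at chr19:10305418-10305792, with 71.5% GC. It held 1 G4 motif and, like the UHRF1 promoter peak, an E2F word. The other DNMT1 peak, 638 bp wide at chr19:10341785-10342422, was centred at -36474 bp from the canonical start, upstream of it. It counts as a promoter peak because 2 annotated coding transcripts of DNMT1 begin there, and it also lay within 1 kb of a start of S1PR2, a sphingosine phosphate receptor. Of all coding promoter peaks, 2.94% held an E2F word (347 of 11797), and 2 of the 13 member promoter peaks did (15.4%, 95% Wilson interval 4.33 to 42.2%). The DNMT1 motif, on the minus strand, which is the coding strand, lies at chr19:10305437-10305465. The E2F word, on the plus strand, lies at chr19:10305624-10305631, and it is shown beside the motif with capitals as before.
DNMT1 G4 motif: GGGGGacaggcaGGGcgctGGGtGGGGGG
DNMT1 E2F word: cgccccggctTTTCGCGCggaaaccgat

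**Figure D2:**
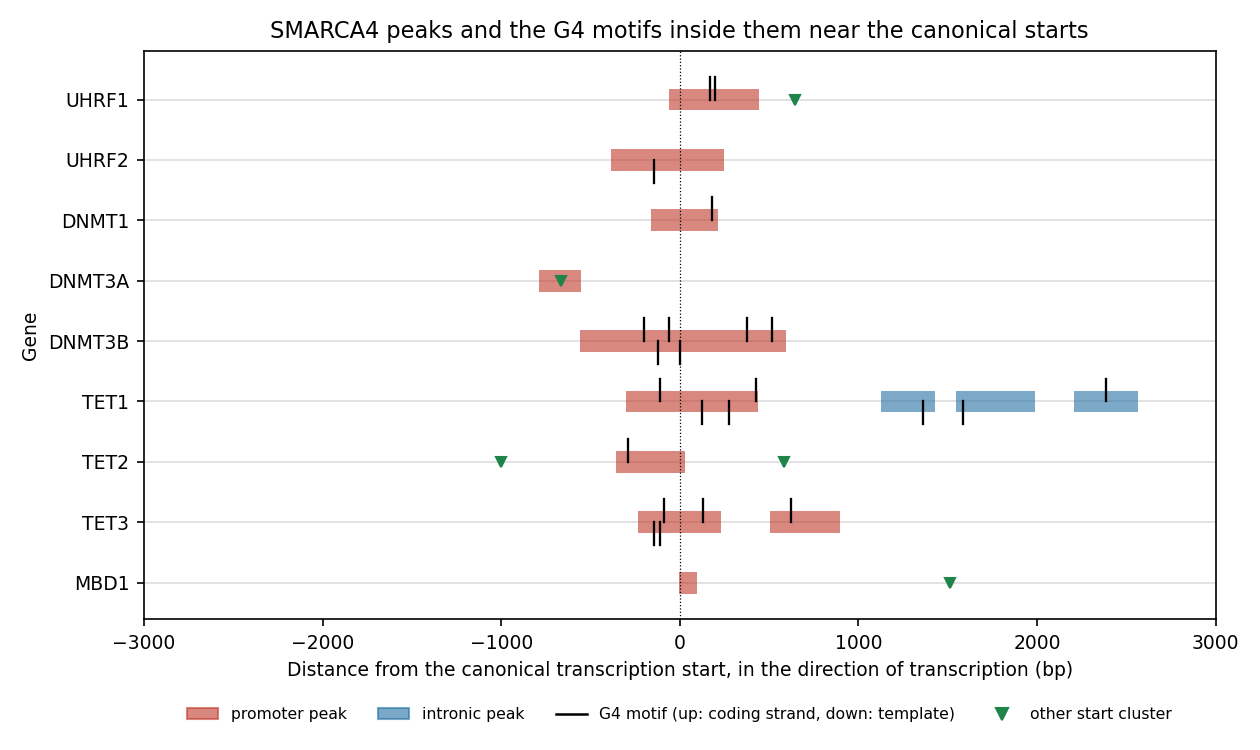
SMARCA4 peaks (bars) within 3 kb of the canonical start of each gene, plotted by distance in bp in the direction of transcription, with the G4 motifs inside peaks as black ticks (up for the coding strand, down for the template strand) and the most upstream start of other start clusters as triangles. The bar nearest the start covers 0 in every gene but DNMT3A, and the DNMT3B bar, 1150 bp wide, holds 6 ticks.

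The de novo enzymes had 3 peaks each, in different arrangements. At DNMT3A, the peak nearest the canonical start, at chr2:25565348-25565583, was 236 bp wide and lay 554 bp upstream of it, over the start of other coding transcripts. This peak had 74.6% GC and 0 G4 motifs, although the sequence within 1 kb of the canonical start held 10 motifs, none of which lay in a peak. A second promoter peak, 206 bp wide, lay in intron 6 of the canonical transcript, 89249 bp downstream of the canonical start and 263 bp upstream of a cluster of starts at which 3 shorter DNMT3A transcripts begin. It had 65.5% GC and held 1 G4 motif.

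The remaining DNMT3A peak, 239 bp wide, was in the same intron with a gap of 3811 bp between them. It had 48.5% GC and a CpG ratio of 0.171, held a G4 motif on the coding strand that contained no CpG, and carried the GATA word AGATAA 3 times in a repeat. GATA factors include GATA1, the erythroid regulator that K562 expresses. These intronic sequences are shown whole because both combine a G4 motif with an internal position in DNMT3A. Both are centred in intron 6 of the canonical transcript, and the 239-bp peak overlaps no exon of a coding DNMT3A transcript. The first is chr2:25475443-25475648 on the plus strand of hg19, which is the template strand, and the second is chr2:25479460-25479698 on the minus strand, which is the coding strand. Capitals mark the G4 motif in each as matched by that rule, with further guanine runs beside it in lower case, and in the second also the AGATAA words.
DNMT3A internal promoter peak: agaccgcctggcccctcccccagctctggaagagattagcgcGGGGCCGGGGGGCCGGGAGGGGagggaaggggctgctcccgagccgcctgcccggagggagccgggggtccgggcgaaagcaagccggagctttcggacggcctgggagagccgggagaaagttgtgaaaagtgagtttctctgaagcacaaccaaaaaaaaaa
DNMT3A intronic peak: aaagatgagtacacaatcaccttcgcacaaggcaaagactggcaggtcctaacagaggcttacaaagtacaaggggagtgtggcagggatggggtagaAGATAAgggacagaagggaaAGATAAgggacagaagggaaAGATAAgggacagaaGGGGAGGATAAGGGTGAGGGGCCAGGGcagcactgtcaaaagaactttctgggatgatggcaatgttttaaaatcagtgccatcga

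DNMT3B had the widest peak of the 31, 1150 bp over its start at chr20:31349634-31350783, with 92.9% of all coding promoter peaks as narrow or narrower. It held 6 G4 motifs, more than any other member peak, 4 on the coding strand and 2 on the template strand. An upstream peak of 1098 bp, at chr20:31339819-31340916, crossed the 10 kb border of the region. It had 48.0% GC, no G4 motif and 3 GATA words in its central 200 bp. A 218-bp peak in intron 1 held no G4 motif and, in its central 200 bp, none of the listed words. The DNMT3B motif nearest the start on the coding strand lies at chr20:31350117-31350142 on the plus strand and contains the SP/KLF word GGGCGG. Guanine runs are in capitals.
DNMT3B G4 motif: GGGGGcacccccGGGcGGGGGcGGGG

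The erasers ranged from the fewest peaks to the most. TET1 had a promoter peak of 739 bp at chr10:70319792-70320530 with 63.1% GC and 4 G4 motifs. It was followed within intron 1 by 3 further peaks of 303, 442 and 355 bp, centred 1277, 1767 and 2385 bp downstream of the start, each with 1 G4 motif. Merging peaks at most 500 bp apart left TET1 with 3 peaks in place of 5. The upstream TET1 peak, 857 bp wide, had 47.0% GC and no G4 motif. Of coding genes within 25% of the length of the TET1 region, 16.4% had as many peaks or more.

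TET2 had a single peak of 386 bp at chr4:106067676-106068061, with 73.1% GC and 1 G4 motif. Its central 200 bp held 6 SP/KLF words, the most in the central 200 bp of any member peak. The peak reached 28 bp past the canonical start, and all 3 start clusters of the gene had it within 1 kb. The next peak outside the region was 181445 bp from the gene span, and 69.2% of coding genes of similar length had as many peaks or more.

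TET3 had 11 peaks, and 1.18% of the 2118 coding genes of similar length had as many or more, with a median of 2. The promoter peak over its canonical start was 460 bp wide with 81.7% GC and 4 G4 motifs, and a peak of 391 bp with 1 motif followed it. The remaining promoter peak, 567 bp with 1 motif, covered the start of a shorter coding transcript 17803 bp downstream. The upstream peak of 402 bp lay within 1 kb of a start of the noncoding gene DGUOK-AS1. The 7 intronic peaks lay from 47884 to 99087 bp downstream of the start. They were 15 to 979 bp wide and held 0 G4 motifs, and the central 200 bp of 4 of them held a GATA word. The 15-bp peak was among the narrowest of the list, with 0.527% of all peaks as narrow or narrower, and its GATA word lay 85 bp from the centre, outside the peak itself. The peaks at the canonical starts of TET1 and TET3 held 4 motifs each, and the loops differ within a peak. The TET motifs below are 1 coding-strand example from the peak at each canonical start. They lie at chr10:70319969-70319994 in TET1, chr4:106067732-106067757 in TET2 and chr2:74211934-74211966 in TET3, on the plus strand of hg19, which is the coding strand of each gene, with guanine runs in capitals.
TET1 G4 motif: GGGGGaGGGGGaGGGGGtcgagaGGG
TET2 G4 motif: GGGagccGGGGctgaGGGccccaGGG
TET3 G4 motif: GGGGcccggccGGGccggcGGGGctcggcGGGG

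MBD1, a reader with a methyl-CpG-binding domain and CXXC zinc fingers, was the only member whose promoter peaks held no G4 motif, although 3 motifs lay within 1 kb of its canonical start. Its promoter peak was 102 bp wide, at chr18:47807798-47807899, and 4.95% of coding promoter peaks were as narrow or narrower. Without peaks narrower than 200 bp MBD1 lost this peak, and the members with a promoter peak fell from 9 to 8. Adjacent ETS words, CCGGAA, lay at the edge of the peak, and the second ran past its end. The other MBD1 peak, 384 bp in the upstream flank, lay within 1 kb of a start of CXXC1, a reader of unmethylated CpG. The line below covers the ETS word inside the peak, chr18:47807892-47807897 without flanking bases, on the plus strand, which is the template strand, with that word in capitals.
MBD1 ETS word: ttcgttgctcCCGGAAccggaagtcc

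The members' peaks were close in width to the rest of the list. Their median was 386 bp (95% order-statistic interval 303 to 502 bp), against 368 bp for all peaks (364 to 372 bp). The 13 promoter peaks had a median of 460 bp (236 to 638 bp), against 421 bp for all coding promoter peaks, and the 13 intronic peaks had a median of 304 bp (239 to 443 bp). Of the 31 peaks, 10 were at least 500 bp wide (32.3%, 95% Wilson interval 18.6 to 49.9%), against 33.2% of all peaks, and 2 were narrower than 200 bp (6.45%, 1.79 to 20.7%), against 16.4%. Both shares of all peaks lie within the intervals. The intervals take the 31 peaks as independent, although 11 came from TET3 and 5 from TET1.

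**Figure D3:**
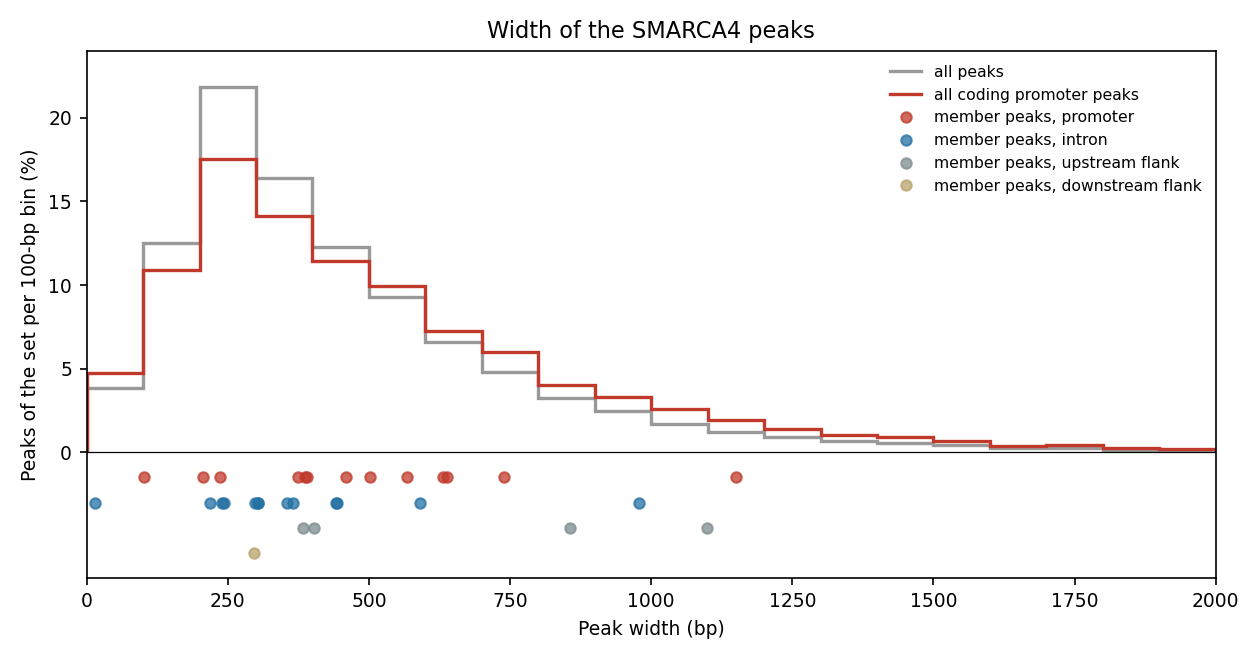
Width in bp of all peaks (grey line) and all coding promoter peaks (red line), as the percentage of each set per 100-bp bin up to 2000 bp, with the member peaks as points below the axis, a row for each class. The member points run from 15 to 1150 bp and lie across the range in which most of the list falls.

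G4 motifs were frequent in the members' promoter peaks. Of the 31 peaks, 9 held a motif within the central 200 bp. Anywhere in the peak, 15 held a motif (48.4%, 95% Wilson interval 32.0 to 65.2%), against 23.2% of all peaks. At promoters 11 of 13 did (84.6%, 57.8 to 95.7%), against 41.3% of the 11797 coding promoter peaks, while in introns 4 of 13 did (30.8%, 12.7 to 57.6%) and in the flanks 0 of 5. Of the 16 member peaks at no coding promoter, 4 held a motif (25%, 10.2 to 49.5%), 3 of them in TET1 and 1 in DNMT3A, against 10.2% of all such peaks, a share at the lower bound of the interval. The 3 TET1 peaks began 1126, 1547 and 2208 bp downstream of its start, where the promoter window ended at 1 kb. A promoter peak with a motif was found in 8 of the 9 members, against 24.3% of coding genes and 52.2% of the coding genes that had a promoter peak. By the same rule, 20 of the 36 other pathway genes, 21 of 30 Polycomb genes and 17 of 26 SWI/SNF subunits, lists described further on, had such a peak. With the canonical start alone the members with one numbered 7. The promoter peaks of the members were also rich in GC, with a median of 73.1% against 65.1% for all coding promoter peaks. Within GC classes of the central 400 bp, 3 of 4 member promoter peaks between 60 and 70% held a motif there, against 37.9% of the coding promoter peaks in that class, and 7 of 8 between 70 and 80% did, against 64.9%. These counts are small, and the part of GC content in the overall share was not tested.

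All 9 members had a G4 motif within 1 kb of the canonical start, against 68.3% of coding genes. Of the 44 motifs there, 20 lay inside a peak (45.5%, 31.7 to 59.9%), against 42.0% for all coding genes with a peak at the canonical start, a share within the interval. The members differed in this, from 1 of 1 motif at DNMT1, 6 of 7 at DNMT3B, 4 of 5 at TET1 and 5 of 7 at TET3 to 2 of 5 at UHRF1, 1 of 3 at UHRF2 and TET2, 0 of 3 at MBD1 and 0 of 10 at DNMT3A. In all, the member peaks held 28 motifs, 17 on the coding strand and 11 on the template strand. A CpG, the site that these enzymes act on, was present in 22 of the 28 (78.6%, 60.5 to 89.8%), against 83.0% of the motifs in all peaks. A motif says only that the sequence can fold.

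**Figure D4:**
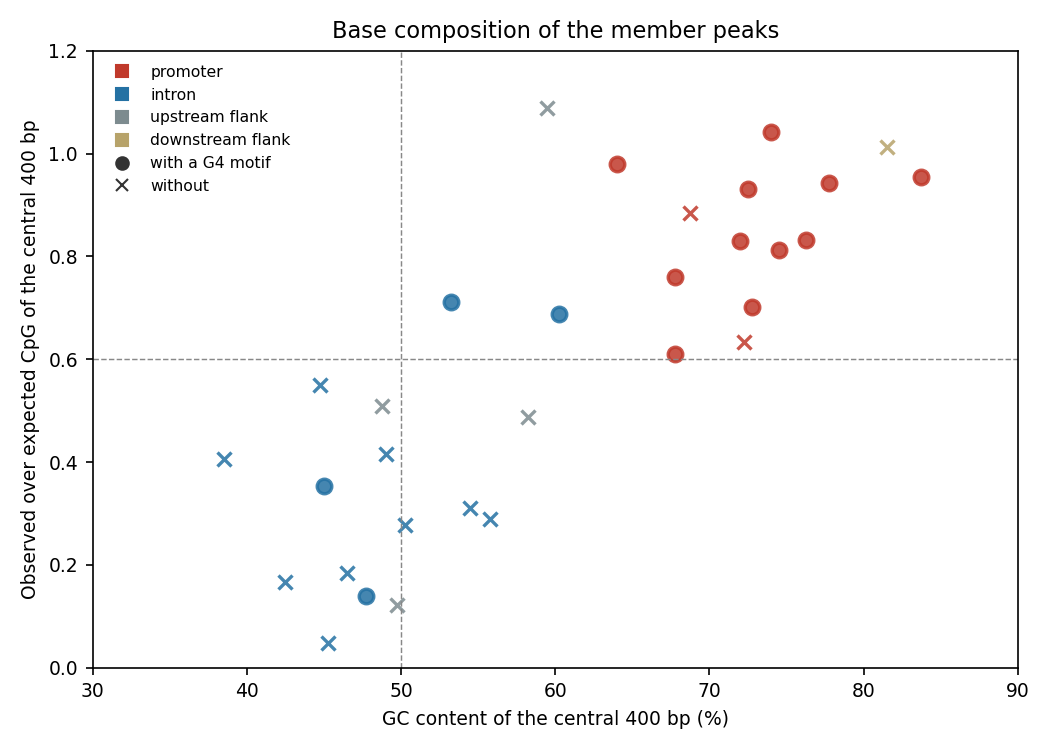
GC content (%) against the observed over expected CpG ratio in the central 400 bp of each of the 31 member peaks, coloured by class, with circles for peaks that held a G4 motif, crosses for those without, and dashed lines at 50% and 0.6. All 13 promoter peaks lie in the upper right, and most intronic peaks lie below the ratio of 0.6.

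Base composition differed between promoter and intronic peaks. All 13 promoter peaks were CpG-rich, as were 77.0% of all coding promoter peaks, while 2 of the 13 intronic peaks were, both in intron 1 of TET1. In the flanks 2 of 5 were, the peaks near the starts of KDM4B and CXXC1. The median CpG ratio was 0.814 in promoter peaks, against 0.815 in all coding promoter peaks, and 0.322 in intronic peaks. It was 0.329 in the member peaks at no coding promoter, against 0.243 in all such peaks. The whole list thus differed in the same direction. Of the short words sought in the central 200 bp on both strands, SP/KLF (GGGCGG) was found in 8 of the 13 promoter peaks (61.5%, 35.5 to 82.3%), against 54.9% of all coding promoter peaks. These letters can be part of a G4 motif. GATA words, which are the letters GATA after an A or a T and before an A or a G, were in 0 of 13 promoter peaks (0 to 22.8%), against 14.2%, and in 7 of the 16 member peaks at no coding promoter (43.8%, 23.1 to 66.8%), against 58.8% of all such peaks, a share within the interval. NF-Y (CCAAT) was in 1 promoter peak and ETS in 2, against 18.2% and 17.6%, both within the intervals of the members. AP-1 (TGACTCA or its other form TGAGTCA) was in 1 of the 31 peaks, in intron 2 of UHRF1, against 12.3% of all peaks.

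Most members had more than 1 group of starts. Their coding transcripts began in 25 clusters of starts at most 500 bp apart, and 16 clusters had a peak within 1 kb (64.0%, 44.5 to 79.8%), against 30.6% of the clusters of all coding genes. These were all 9 clusters with the canonical start and 7 of the other 16 (43.8%, 23.1 to 66.8%). For 4 of these 7, at UHRF1, DNMT3A and TET2, the nearest peak was the one nearest the canonical start, and 3 had another, at DNMT1, DNMT3A and TET3. Over all coding genes with a peak at the canonical start, 27.0% of the other clusters had one, a share within the interval. At MBD1 none of the 3 further clusters had one, and at DNMT3B the cluster 17467 bp downstream did not.

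Other genes of the pathway were read beside the same 46.7% of coding genes with a promoter peak. Over 5 lists, 31 of 36 genes had one (86.1%, 71.3 to 93.9%). All 8 other genes counted in the list of methyl-CpG readers did, among them MBD2 and ZBTB33. That list also takes in MBD3, MBD5 and MBD6, which belong to the family by their domain and are not known for selective binding of methylated CpG. A promoter peak was also found in all 8 genes of methyl donor and 2-oxoglutarate supply, among them MAT2A, which makes the methyl donor, and IDH1 and IDH2. Of the CXXC readers 6 of 7 did, all but CXXC4. Among the repair genes and TET partners 5 of 7 did (71.4%, 35.9 to 91.8%), including TDG, which excises oxidised methylcytosine, but not SMUG1 or NEIL1. Of the other writers and maintenance partners 4 of 6 did (66.7%, 30.0 to 90.3%), including PCNA, USP7 and TRDMT1. TRDMT1 is in this list by its family and not as a known writer of the mark on DNA. The intervals of these last lists contain the share of all coding genes. The genes without were DNMT3L, a cofactor of the de novo enzymes with 1 intronic peak, and HELLS, a remodeller needed for DNA methylation, with 0 peaks in its region. All the lists, here and below, were chosen with earlier results of these data known, and the intervals do not cover that choice.

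High counts were not particular to DNA methylation. All 30 genes of the Polycomb repressive complexes had a promoter peak (88.6 to 100%), as did 25 of 26 SWI/SNF subunits (96.2%, 81.1 to 99.3%), all but DPF3. Among the markers of cell type, all 8 erythroid genes, which K562 is known for, had a promoter peak, GATA1, TAL1 and KLF1 among them, and 0 of 8 lymphoid genes did (0 to 32.4%). These markers were read for occupancy and not for expression.

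**Figure D5:**
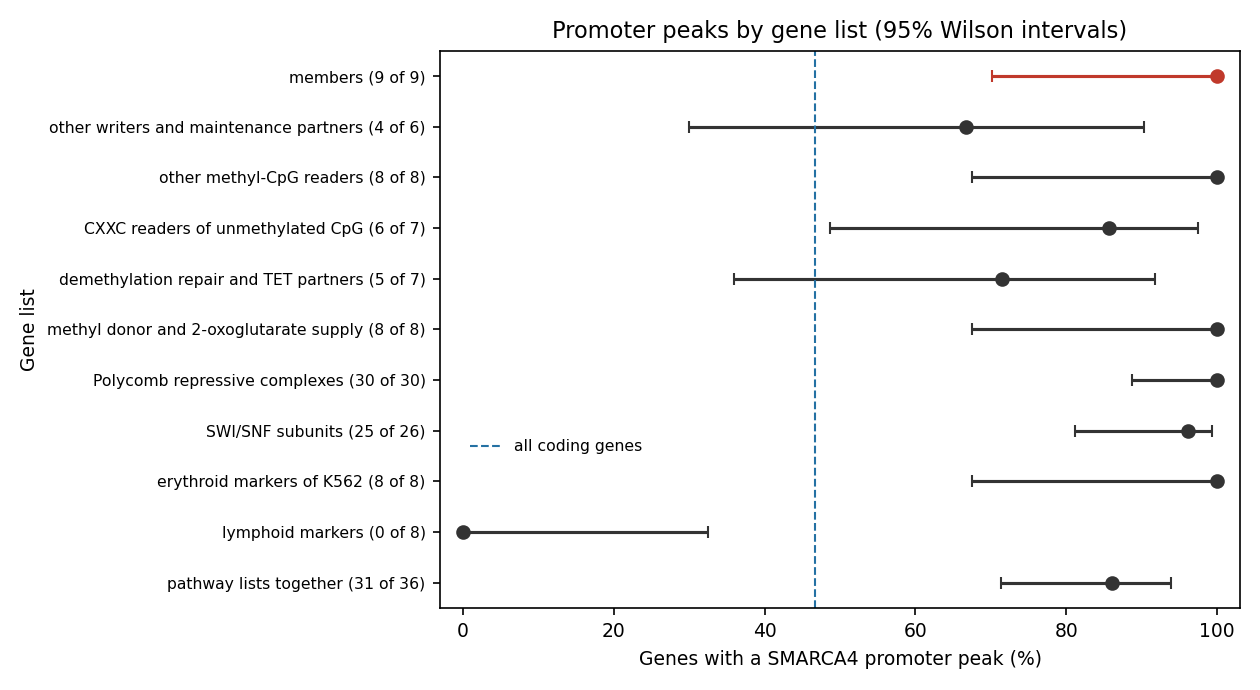
Percentage of genes with a SMARCA4 promoter peak in the members and in each other list, with 95% Wilson intervals as bars, counts in the labels and the share of all coding genes (46.7%) as a dashed line. The members, the methyl-CpG readers, the methyl donor genes, the Polycomb genes and the erythroid markers are at 100%, and the lymphoid markers are at 0.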

How the data were processed

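SMARCA4 ChIP-seq of K562 cells comprised 3 ChIP and 3 input libraries. The authors trimmed reads (cutadapt 1.16), aligned them to hg19 (BWA 0.7.15), removed duplicates (Picard 2.14.0, SAMtools 1.6), called peaks in each replicate (MACS2 2.1.1, q-value threshold 0.05) and kept regions present in at least 2 of 3 replicates (bedtools 2.26.0). The deposited values are chromosome, start and end in bp, with no score or value per replicate. Positions are written from 1.

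Peaks were assigned to genes with GENCODE 44 lifted to hg19, in the order promoter, exon, intron, flank, with Python 3.11.15, numpy 2.4.6, scipy 1.17.1, pysam 0.24.0 and matplotlib 3.10.9. Functions were tested on simulated data. Motifs came from the hg19 sequence. All 117 listed genes matched a gene by symbol, and a further gene of the lists is not reported here. All members were named, as were pathway and SWI/SNF genes without a promoter peak. Coding neighbours with a start within 1 kb of a member peak were named too. Other neighbours within 1 kb were DGUOK-AS1, MIR4322 at the upstream DNMT1 peak, and a gene without a symbol at the TET3 start. Other list genes named are examples. The members and lists were chosen with earlier results of these data known. Wilson and order-statistic intervals cover counting error only and take peaks of the same gene as independent. Alternatives changed peak width, merging, region, promoter, overlap and motif rules. No test was made, since there was 1 condition and 1 pooled list.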

Additional observations from a re-analysis of the deposited data

How the results depend on the processing

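No paired analysis was possible because the 3 replicates are pooled in a list without values for each of them, and therefore no replicate could be left out either. Of 112 recomputed values over 15 alternative settings, 95 stayed within 1.5 times the count or within the interval and 17 did not. Some of the 95 could not move. The flank does not enter the intronic counts, and members with a promoter peak, all 9, could not rise. Their fall to 8 with the 200-bp minimum is among the 95. Some of these alternatives, namely those for the peaks of each gene, for members with an intronic peak and for members with a G4 motif in a promoter peak, were chosen after seeing the data.

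With 50 kb on each side in place of 10 kb, the members had 61 peaks and 27 peaks with a G4 motif, as a wider region takes in more peaks. With the motif sought in the central 200 bp, 9 peaks held one, as less sequence is searched. The share of coding genes with a promoter peak, 46.7%, was 43.8% for peaks of at least 200 bp, 45.5% within 500 bp of a start, 48.1% within 2 kb, 44.8% for 1 kb upstream only, 48.1% with starts of all transcripts and 44.2% with the canonical start. Members with a promoter peak stayed at 9 in all alternatives but the 200-bp minimum, which gave 8. Pathway genes with a promoter peak stayed at 31, intronic peaks ran from 9 to 14, and members with a G4 motif in a promoter peak from 6 to 8. The midpoint rule and the 50% rule gave values equal to each other, with 46.3% of coding genes. Depth, unknown from the list, limits what an absent peak means.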
